A study of Mus musculus with 60 samples.

Results

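Goblet cells and mucous acinar cells fill their secretory granules with gel-forming mucins and with the proteins that fold, cross-link and protect the mucus. The members followed here are 7 mouse genes that are known from such cells or from mucus: A2ml1, Nxpe4, Itln1, Fcgbp, Agr2, Tff2 and Muc5b. They were taken by symbol from the 41079 genes of the count table, and all 7 were in it. Levels were read in 60 poly(A) RNA libraries from parotid, submandibular and sublingual gland, pancreas and liver of 12 mice, 3 males and 3 females each of CD1 and C57. The labels give neither an age nor a genotype or treatment, and name the strains only as CD1 and C57. CD1 mice are outbred and C57 mice inbred, so the CD1 animals can differ genetically from each other. Each animal gave 1 library per tissue, and animals are named by strain, sex and number, as in C57 male 2.

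In the mucous pathway, Agr2 is a protein disulfide isomerase of the endoplasmic reticulum that helps mucins fold, Muc5b and Muc19 are gel-forming mucins, and Fcgbp is a large mucus protein built of von Willebrand factor D domains. Itln1 is a secreted lectin of intestinal goblet and Paneth cells that binds microbial sugars, Tff2 is a trefoil peptide that stabilises mucus, and A2ml1 is a protease inhibitor related to alpha-2-macroglobulin. Nxpe4 belongs to a small family with neurexophilin and PC-esterase domains. The sublingual gland is the mostly mucous gland of the 3 salivary glands, the parotid is serous, and the submandibular gland is mixed and differs between the sexes in its granular ducts.

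Library totals ran from 29871176 to 66586067 counts. Small values were even more often than odd (269114 against 160278 among values of 1 to 20), so both reads of a pair may have been counted, and 2 counts may come from 1 fragment. Levels are CPM, counts scaled to a common library size with the trimmed mean of M-values (TMM) over all libraries, and are not divided by gene length. Pancreas CD1 female 2 had 18 of 20 intestinal markers and 5 of 5 Paneth cell markers above every other pancreas library, and 0 of 6 acinar markers above them. That library is kept apart as a positive control and is left out of all means, which leaves 59 libraries. Among the rest, parotid C57 male 2 and C57 female 1 carried lacrimal-type transcripts, parotid C57 female 2 carried high fat-cell transcripts, sublingual C57 male 2 carried Egf, and pancreas CD1 female 3 was low in acinar genes and high in lymphoid genes. Their values stand beside each result they touch. In bulk tissue, fewer cells of a type and less RNA per cell cannot be told apart.

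The label of goblet-like genes was not borne out for every member. Over both strains, A2ml1, Nxpe4, Fcgbp, Agr2 and Itln1 had their highest tissue mean in the sublingual gland. That gland carried the mucous markers Muc19 (5498 to 15795 CPM) and Nkx2-3 (65.6 to 127.9 CPM). For Itln1 this came from CD1 (sublingual mean 11.8 CPM, against 0.307 CPM in C57), and no tissue pair was called. For Agr2, parotid C57 male 2 (193 CPM) and C57 female 1 (52.7 CPM) exceeded every C57 sublingual library (at most 39.5 CPM). Tff2 was a pancreas transcript here, and Muc5b was close to 0 in every library. Atoh1, the regulator that specifies intestinal goblet cells, reached at most 0.223 CPM in the 59 libraries, and Muc2, the intestinal gel-forming mucin, reached at most 1.23 CPM in sublingual gland. The genes are therefore called by their names below.

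RefSeq promoter windows (assembly GRCm38.p6, 250 bases before to 50 bases after the gene's start) were matched for 5 of the 7 genes; Tff2 and Muc5b were not matched. The windows of 3 are shown because the results turn on them: A2ml1 as the leading sublingual transcript, and Nxpe4 and Itln1 as the genes that differed most between the strains. Each is written 5′ to 3′ on the gene's strand in the reference genome, and no CD1 or C57 sequence from these animals was read. Capitals mark matches to the searched motifs.
A2ml1 (chr6:128581557-128581856, minus strand): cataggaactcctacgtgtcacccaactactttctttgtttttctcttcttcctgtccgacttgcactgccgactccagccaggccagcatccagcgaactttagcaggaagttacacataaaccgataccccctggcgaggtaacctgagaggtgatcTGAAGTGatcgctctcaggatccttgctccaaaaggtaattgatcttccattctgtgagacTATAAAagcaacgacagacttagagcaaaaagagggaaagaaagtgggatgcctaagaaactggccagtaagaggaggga
Nxpe4 (chr9:48361791-48362090, plus strand): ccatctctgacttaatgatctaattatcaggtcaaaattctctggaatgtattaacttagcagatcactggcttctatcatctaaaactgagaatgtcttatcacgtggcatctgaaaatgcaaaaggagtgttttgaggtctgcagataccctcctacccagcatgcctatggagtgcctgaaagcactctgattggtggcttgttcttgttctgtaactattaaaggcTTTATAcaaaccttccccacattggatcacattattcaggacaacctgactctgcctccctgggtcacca
Itln1 (chr1:171535245-171535544, minus strand): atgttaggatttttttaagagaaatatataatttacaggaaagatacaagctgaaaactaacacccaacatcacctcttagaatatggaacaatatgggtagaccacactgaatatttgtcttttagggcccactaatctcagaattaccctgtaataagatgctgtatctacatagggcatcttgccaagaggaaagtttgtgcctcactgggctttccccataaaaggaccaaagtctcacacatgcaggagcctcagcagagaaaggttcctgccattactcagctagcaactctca

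On both strands, 6 motifs were searched that are known for factors of mucous cells or for transcription starts: TGTTTAC and TGTTTGC (FOXA), CACTTNA (NKX2), GGATGT (SPDEF), GACGTG (XBP1) and TATAAA (the TATA box). The A2ml1 window held TATAAA at -30 and CACTTNA on the opposite strand at -91 from the gene's start. The Nxpe4 window held TATAAA on the opposite strand at -20, and the Itln1 window held none of the 6. Of all 32851 promoter windows of this length, 13.6% held TATAAA, 11.5% CACTTNA, 11.1% GGATGT, 6.38% GACGTG, 5.07% TGTTTGC and 3.65% TGTTTAC. The matches are letters in a window and are not shown to be bound sites.

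A2ml1 was the most abundant transcript by counts in all 12 sublingual libraries, where it took 4.61% to 10.97% of the counts. Divided by gene length it ranked 3 of 41079 genes. The count table lists an exon of A2ml1 at chromosome 6, 128516785 to 128516982 on the minus strand (GRCm39). Sublingual CPM of A2ml1 was 60908, 47397 and 50082 in CD1 males, 57458, 59890 and 57568 in CD1 females, 71368, 29999 and 63517 in C57 males, and 53175, 43482 and 61103 in C57 females. C57 male 2 had the lowest value, and the strains overlapped. In that library Egf, a granular duct growth factor of the submandibular gland, was at 11270 CPM, while the other 11 ranged up to 368 CPM.

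**Figure D1:**
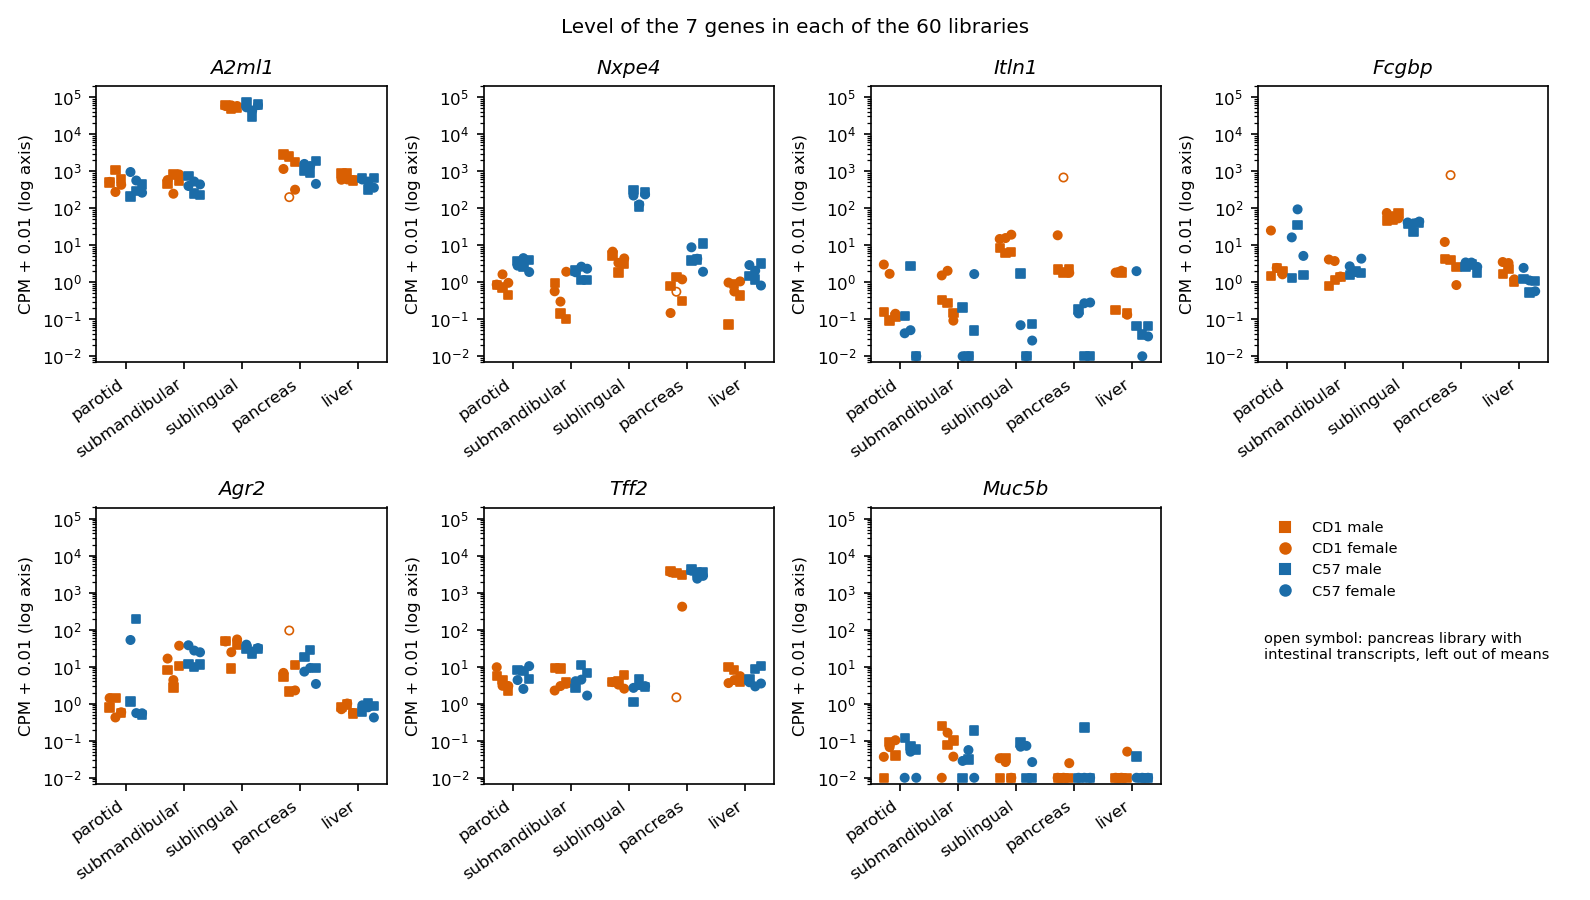
Level of each of the 7 genes (CPM + 0.01, log axis) in every library by tissue. Squares are males and circles females, orange is CD1 and blue C57, and the open circle is the pancreas library left out of means. A2ml1 lay at 29999 to 71368 CPM in sublingual gland, Tff2 at 419 to 4211 CPM in the kept pancreas libraries, and Muc5b at 0.237 CPM or less throughout.

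Between tissues, A2ml1 was higher in sublingual gland than in each of the others (edgeR, quasi-likelihood, p adjusted by Benjamini-Hochberg over all genes). A gene was called between tissues at an adjusted p under 0.05 and a difference of at least 2-fold. The log2 difference was 6.78 ± 0.32 (SE) from parotid (adjusted p = 5.91e-22), 6.75 ± 0.32 from submandibular (1.28e-21), 5.41 ± 0.34 from pancreas (4.34e-18) and 6.50 ± 0.32 from liver (1.13e-22). The strain difference within the sublingual gland was 0.03 ± 0.21 on the log2 scale (adjusted p = 0.936), and the sex difference was -0.05 ± 0.21 (adjusted p = 0.996).

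Outside the sublingual gland, A2ml1 was detected in every library, at 0.381% to 5.16% of the sublingual mean (median 1.05%, n = 47). Muc19 ran at 0.368% to 4.26% (median 1.04%) and B3gnt6, the enzyme that makes the core 3 mucin sugar, at a median of 0.925% of their own sublingual means in the same libraries. The ratio of A2ml1 to Muc19 in CPM had a higher median in CD1 than in C57 in all 5 tissues, which was not tested. The strains' ranges did not overlap in sublingual gland (600% to 835% in CD1, 387% to 546% in C57) and overlapped in the other 4. In CD1 the median ratio was 647% in sublingual gland and 590%, 603%, 636% and 623% in parotid, submandibular, pancreas and liver. In C57 it was 501% in sublingual gland and 491%, 475%, 508% and 500% in the same order. The share of sublingual RNA in the other tissues' levels was not tested.

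Nxpe4 was the member with the smallest adjusted p between the strains in sublingual gland. The count table lists an exon of it at chromosome 9, 48073302 to 48073557 on the plus strand (GRCm39). Its sublingual level was 110 CPM or more in every C57 library and under 6.7 CPM in every CD1 library. In C57 males it was 311, 110 and 272 CPM and in C57 females 220, 126 and 236 CPM. CD1 males were at 5.28, 1.80 and 3.09 CPM and CD1 females at 6.69, 3.32 and 4.39 CPM. The groups did not overlap, and both sexes gave the same order. The counts behind these values were 7713 to 19730 per C57 library and 151 to 563 per CD1 library.

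By edgeR's quasi-likelihood test, sublingual Nxpe4 was lower in CD1 by 5.73 ± 0.37 on the log2 scale (adjusted p = 1.45e-06, lower in 6 of 6 CD1 libraries). Of the 18801 genes tested in sublingual gland, 14.8% were called between the strains, 7.49% higher in CD1 and 7.36% higher in C57. Of the 6 members that entered this test, 3 were called: Nxpe4 lower in CD1, Itln1 and Fcgbp higher. Muc5b did not pass the filter on low counts, and Itln1 passed it only through its CD1 libraries, so a count over the members that passed carries no weight of its own.

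Over both strains, Nxpe4 in sublingual gland exceeded parotid by 4.08 ± 0.33, submandibular by 4.85 ± 0.35, pancreas by 3.73 ± 0.36 and liver by 4.69 ± 0.35 on the log2 scale, all called (edgeR, adjusted p from 2.15e-16 to 4.16e-12). These are averages over strains that differed in sublingual gland.

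The sublingual strain difference of Nxpe4 was not shared equally by the 3 glands. A test that the strain difference is equal in parotid, submandibular and sublingual gland gave an adjusted p of 2.48e-04 (edgeR; 0.963% of 20883 genes were called). Parotid Nxpe4 was 1.88 to 4.47 CPM in C57 and 0.445 to 1.62 CPM in CD1, without overlap, and fell by 1.91 ± 0.30 (log2) in CD1 (adjusted p = 0.00973, where 2.02% of genes were called). Without parotid C57 female 1, C57 female 2 and C57 male 2 it was -1.63, with an adjusted p of 0.188. Submandibular Nxpe4 was 1.12 to 2.62 CPM in C57 and 0.0917 to 1.91 CPM in CD1, with a difference of -1.64 ± 0.56 that was not called (adjusted p = 0.128, where 4.75% of genes were called).

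In pancreas, Nxpe4 was 1.91 to 11.0 CPM in C57 and 0.137 to 1.36 CPM in CD1, lower by 2.79 ± 0.62 (log2) in CD1 (adjusted p = 0.0275, 6.82% of genes called). All 7 lymphoid markers were higher in CD1 pancreas, with a summed level of 976 CPM in CD1 female 3 and 16.3 to 27.5 CPM in the other 4 kept CD1 libraries, against 6.91 to 16.1 CPM in C57. Without CD1 female 3 the Nxpe4 difference was -4.02 (adjusted p = 0.00395). Liver values were 0.804 to 3.23 CPM in C57 and 0.0628 to 1.04 CPM in CD1, lower by 1.63 ± 0.50 (adjusted p = 0.0452, 14.1% of genes called). Leaving out 1 animal at a time lost the pancreas call in 6 of 12 fits and the liver call in 9, and both were lost with the replicate number as a block. In pancreas, the fit without CD1 female 2 repeats the main fit, because that library was already left out. The C57 animals' Nxpe4 outside the sublingual gland stood at a median of 0.844%, 0.476%, 0.433% and 0.375% of A2ml1 in parotid, submandibular, pancreas and liver, against 0.400% in C57 sublingual gland. In CD1 the corresponding medians were 0.168%, 0.107%, 0.0275% and 0.0955%, against 0.00689% in sublingual gland. How much of these low levels is sublingual RNA was not tested.

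**Figure D2:**
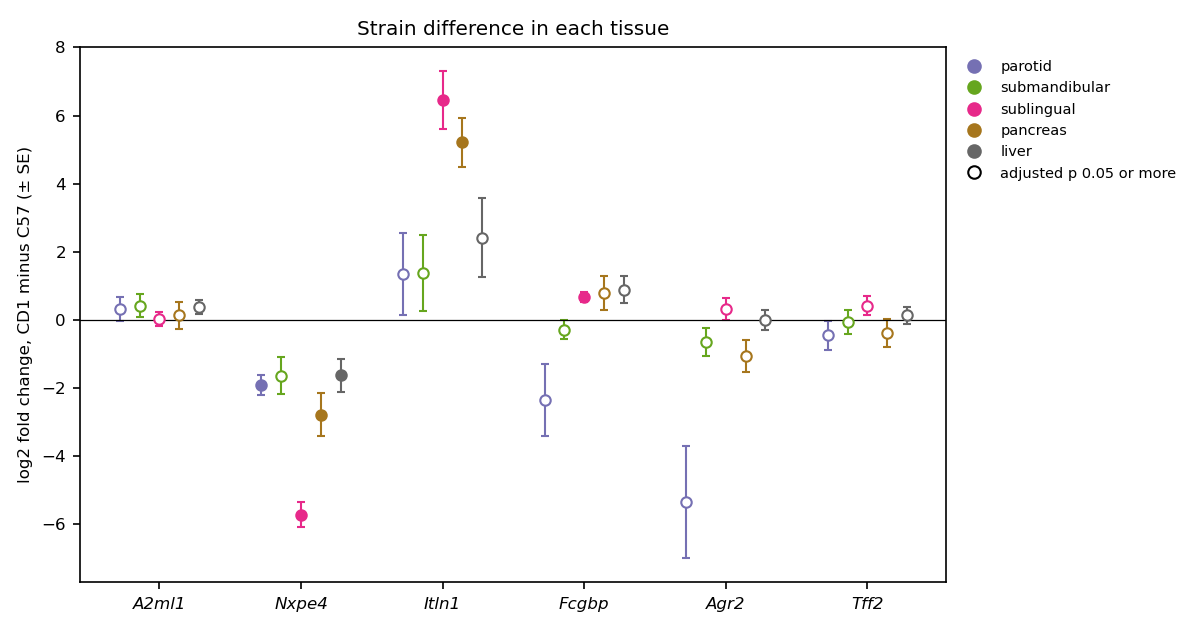
Strain difference (log2 fold change, CD1 minus C57, averaged over the sexes, ± SE) of 6 genes in each tissue, with filled points for an adjusted p under 0.05. Nxpe4 lay at -5.73 and Itln1 at 6.45 in sublingual gland, and A2ml1 lay between 0.03 and 0.41 in the 5 tissues.

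The 3 genes whose levels over 59 libraries ran most like Nxpe4 were Ptgdr (Pearson r = 0.943), Dcpp3 (0.898) and Mobp (0.814), as a description across libraries that share tissue and strain. Ptgdr, a prostaglandin D2 receptor, was at 29.3 ± 9.91 CPM (SD, n = 6) in C57 sublingual gland and 2.32 ± 2.25 CPM in CD1. Dcpp3, a member of the demilune cell and parotid protein family, was at 26220 ± 8043 CPM in C57 and 185.6 ± 84.2 CPM in CD1 sublingual gland. The Dcpp genes are near-identical copies, so their reads may be split between copies or lost, and the value is uncertain. Nxpe2, a relative of Nxpe4, was the only gene called of 13 tested relatives of the members, where 14.8% of all genes were called. It was lower in CD1 by 1.66 ± 0.38 on the log2 scale (edgeR, adjusted p = 0.0131). Nxpe2 was barely detected, at 0.0594 to 0.250 CPM in CD1 and 0.251 to 0.572 CPM in C57 sublingual gland.

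Itln1, with a listed exon at chromosome 1, 171345691 to 171345961 on the minus strand (GRCm39), was higher in CD1. CD1 sublingual libraries held 8.57, 6.22 and 6.68 CPM in males and 14.7, 15.6 and 19.2 CPM in females. In C57, males held 1.70, 0 and 0.0633 CPM and females 0.0591, 0 and 0.0166 CPM. All 6 CD1 libraries exceeded all 6 C57 libraries, and 5 of the C57 libraries held 4 counts or fewer. The summed counts were 5254 in CD1 and 117 in C57, 108 of which came from C57 male 1. Scaled for depth this is a ratio of 40.2 (95% exact interval, from the binomial split of the counts, of 33.5 to 48.8). This interval and those below cover counting error only and leave out the spread between animals. They treat counts as independent, and are too narrow if 2 counts come from 1 fragment.

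The fitted sublingual strain difference of Itln1 was 6.45 ± 0.85 on the log2 scale (edgeR, adjusted p = 5.12e-04). A fitted value against libraries at or near 0 depends on the prior count. In females alone the ratio of scaled counts was 684 (interval 293 to 2107), with 5 counts in the 3 C57 libraries, and in males it was 12.7 (interval 10.5 to 15.5). The dependence of the strain difference on sex was not called (log2 difference -5.68 ± 1.73, adjusted p = 0.771, where 0.0106% of genes were called). Without C57 male 1 the strain difference was 8.55 with an adjusted p of 1.09e-06.

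C57 male 1 was the only C57 sublingual library with Fabp2, an enterocyte fatty acid-binding protein, above 5 CPM (6.36 CPM). Across tissues other than liver, which expresses Fabp2 itself, 9 libraries had Fabp2 at 5 CPM or more. In 7 of them Itln1 stood at 17.5% to 29.5% of Fabp2, beside 25.5% in the intestine-like library that was left out. The exceptions were sublingual CD1 female 2 (239%) and pancreas CD1 female 1 (61.4%). The other 5 CD1 sublingual libraries held 6.22 to 19.2 CPM of Itln1 with at most 0.340 CPM of Fabp2. Fabp2 is a single enterocyte transcript, and the part of intestinal RNA in the Itln1 levels was not tested.

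Pancreas showed the same order of strains. Itln1 was at 2.21, 1.83 and 2.29 CPM in CD1 males and 18.5 and 1.78 CPM in the 2 CD1 females kept, against at most 0.273 CPM in the 6 C57 libraries. The difference was 5.21 ± 0.71 on the log2 scale (edgeR, adjusted p = 0.00223), and the ratio of scaled counts was 27.4 (interval 15.9 to 51.8). The C57 libraries held 13 counts in all, at most 4 each, so Itln1 passed the filter only through its CD1 libraries. The fitted value again depends on the prior count. With the replicate number as a block the adjusted p was 0.0596, and without CD1 female 1 the difference was 4.02 with an adjusted p of 1.41e-04. Without CD1 female 3, the library high in lymphoid genes, it was 5.62 with an adjusted p of 3.46e-06. The 4 CD1 libraries other than female 1 had at most 1.19 CPM of Fabp2, and the C57 libraries at most 1.23 CPM.

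In parotid, submandibular gland and liver the Itln1 strain differences were 1.34 ± 1.20, 1.38 ± 1.12 and 2.42 ± 1.15 (log2) and were not called (adjusted p = 0.528, 0.594 and 0.184). The 18 parotid and submandibular libraries with low Fabp2 held 0 to 0.317 CPM of Itln1. Whether the strain difference differs between glands was not shown (adjusted p = 0.174, 0 of 18 alternatives called). Mouse strains are known to carry different numbers of intelectin genes, and reads from a copy that the C57-derived reference lacks could be counted as Itln1, so Itln1 and such copies cannot be told apart. None of the 5 tissue pairs was called for Itln1. Sublingual minus parotid was 2.10 ± 0.96 (edgeR, adjusted p = 0.0634), and 3.93 without the 3 parotid libraries named above. Those include C57 male 2, the highest C57 parotid library in Itln1 (2.75 CPM), so removing it raises the difference by construction. The genes most like Itln1 were Elfn1 (r = 0.651), Dut (0.651) and Galnt11 (0.648). Elfn1 was at 13.8 ± 5.79 CPM in CD1 and 0.753 ± 0.353 CPM in C57 sublingual gland (SD, n = 6).

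**Figure D3:**
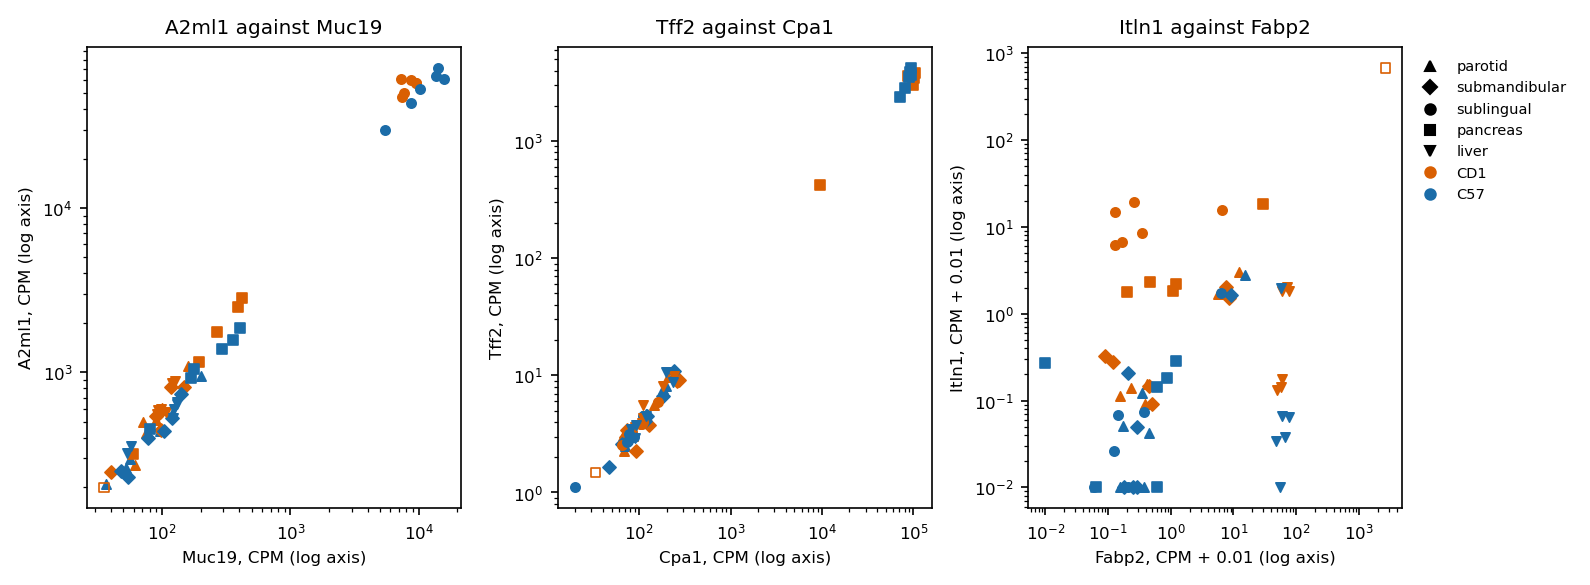
A2ml1, Tff2 and Itln1, each against a reference transcript in every library (CPM, log axes). The pairs are A2ml1 with Muc19, Tff2 with Cpa1, and Itln1 with Fabp2 (CPM + 0.01 for that pair). Shapes are tissues, orange is CD1, blue is C57, and open squares are the left-out library. CD1 sublingual libraries (orange circles), at 6.22 to 19.2 CPM, lie above all other kept libraries but pancreas CD1 female 1 in Itln1, while Tff2 keeps 2.45% to 5.6% of Cpa1 in all 59 libraries.

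Fcgbp was higher in CD1 than in C57 sublingual gland, by a much smaller margin. CD1 males were at 46.7, 48.8 and 71.2 CPM and CD1 females at 74.3, 60.9 and 53.2 CPM. C57 males were at 37.9, 22.5 and 39.3 CPM and C57 females at 41.1, 38.7 and 43.6 CPM. The groups did not overlap, with 43.6 CPM as the highest C57 and 46.7 CPM as the lowest CD1 value. The difference was 0.67 ± 0.16 on the log2 scale (edgeR, adjusted p = 0.0152), and 0.56 with an adjusted p of 0.0199 without C57 male 2, the library with Egf. In 1 fit to all libraries, where the tissues share an estimate of the spread, the adjusted p was 0.637.

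Of the 6 members tested, 4 were called between sublingual and parotid gland (26.6% of genes), 3 between sublingual and submandibular gland (14.9%), 5 against pancreas (31.6%), 4 against liver (48.5%) and 2 between submandibular and parotid gland (21.3%). Across tissues, Fcgbp was 48.2 ± 14.8 CPM (SD, n = 12) in sublingual gland, 15.6 ± 26.8 CPM in parotid, 3.69 ± 2.99 CPM (n = 11) in pancreas, 2.23 ± 1.20 CPM in submandibular gland and 0.513 to 3.51 CPM (median 1.20) in liver. Sublingual exceeded submandibular by 4.47 ± 0.48, pancreas by 3.65 ± 0.50, liver by 4.88 ± 0.49 and parotid by 2.22 ± 0.43 on the log2 scale, all called by edgeR with adjusted p from 3.72e-12 to 2.69e-05. The parotid values were uneven. C57 female 2 held 93.1 CPM, C57 male 2 35.3, CD1 female 1 24.9, C57 female 1 16.3 and C57 female 3 5.13 CPM, and the other 7 held 1.28 to 2.42 CPM. Fabp2 was at 12.2 CPM in parotid CD1 female 1 and 15.5 CPM in parotid C57 male 2. Fcgbp stood at 204% and 228% of Fabp2 in these libraries, against 29.6% in the intestine-like library. The part of intestinal RNA in these parotid levels was not tested.

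The parotid library highest in Fcgbp, C57 female 2, had 6378 CPM over 6 fat-cell genes (Adipoq, Plin1, Cfd, Car3, Retn and Adrb3), against 64.4 to 774 CPM in the other 11 parotid libraries. Its summed mammary epithelium markers were 214 CPM against 18.7 to 201.9 CPM, and 3 of these 8 markers were above all 11 other parotid libraries. The prolactin receptor Prlr was at 134 CPM (others at most 30.6), the estrogen receptor Esr1 at 20.8 CPM (others at most 3.73) and the oxytocin receptor Oxtr at 13.4 CPM (others at most 1.71). The milk genes Csn2, Csn3 and Wap were at 0.122, 24.8 and 0 CPM, each within the range of the others, as were Krt14 and Areg. The fat-cell and mammary markers were chosen after the values were seen, and their part in the Fcgbp level was not tested. Without parotid C57 female 1, C57 female 2 and C57 male 2, the sublingual excess of Fcgbp over parotid was 3.73. Submandibular minus parotid moved from -2.25 ± 0.44 (edgeR, adjusted p = 5.44e-05) to -0.75 and was no longer called. These 3 libraries include the highest parotid values of Fcgbp, so removing them moves both differences by construction.

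Cthrc1 (r = 0.889), Tox3 (0.849) and Panct2 (0.847) were the genes most like Fcgbp over 59 libraries. Cthrc1, a secreted collagen triple helix protein, was at 10.5 ± 2.92 CPM in CD1 and 5.26 ± 0.883 CPM in C57 sublingual gland (SD, n = 6).

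Agr2 was spread over several tissues. It was 33.7 ± 13.2 CPM (SD, n = 12) in sublingual gland, from 8.89 CPM in CD1 male 2 to 54.5 CPM in CD1 female 3. Submandibular gland was at 16.8 ± 12.0 CPM and pancreas at 9.35 ± 7.62 CPM (n = 11), and liver was at 0.765 ± 0.203 CPM. In parotid 10 libraries held 0.416 to 1.44 CPM, while C57 male 2 held 193 CPM and C57 female 1 held 52.7 CPM. Sublingual exceeded parotid by 2.60 ± 0.57, pancreas by 2.10 ± 0.59 and liver by 5.40 ± 0.66 on the log2 scale, all called (edgeR, adjusted p = 1.74e-04, 0.0022 and 7.27e-10). The excess over submandibular gland was 1.16 ± 0.53 and was not called (adjusted p = 0.088).

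The same 2 parotid libraries carried secretoglobins and other lacrimal-type genes. Scgb2b20, Scgb1b20, Lcn11 and Mup4 together reached 32010 CPM in C57 male 2 and 2071 CPM in C57 female 1, against 1.64 to 168 CPM in the other 10. Scgb2b20 alone was at 12547 and 810 CPM in the 2 libraries and at most 57.9 CPM in the 9 parotid libraries other than these and C57 female 2. The part of lacrimal-type RNA in the Agr2 level was not tested. Without these 2 libraries and C57 female 2, Agr2 in sublingual gland exceeded parotid by 5.43 on the log2 scale. Submandibular then exceeded parotid by 4.26, in place of 1.44 ± 0.56 (edgeR, adjusted p = 0.0338). With all parotid libraries kept in the main fit, leaving out 1 animal at a time lost that call in 7 of 12 fits (adjusted p up to 0.127). The 2 libraries were the highest parotid values of Agr2, so removing them raises both differences by construction.

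Sublingual Agr2 did not pass the test between strains (0.32 ± 0.33 on the log2 scale, adjusted p = 0.555) or between sexes (-0.31 ± 0.33, adjusted p = 0.996). The parotid strain difference of -5.35 ± 1.65 was not called (adjusted p = 0.117) and was 0.36 without the 3 C57 libraries. The genes most like Agr2 were Smim14 (r = 0.854), Cxxc4 (0.852) and Ube2j1 (0.851). Ube2j1 is a ubiquitin-conjugating enzyme of the endoplasmic reticulum.

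**Figure D4:**
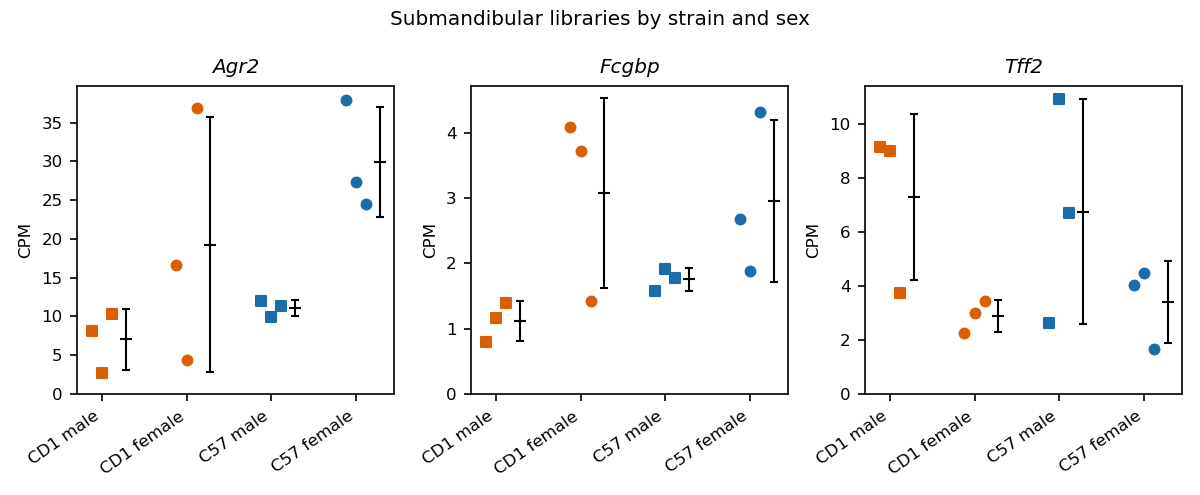
Agr2, Fcgbp and Tff2 (CPM, linear axis from 0) in the 12 submandibular libraries by strain and sex, with the mean ± SD of 3 animals beside each group. C57 females held 24.5 to 37.9 CPM of Agr2, and males of both strains 2.72 to 12.0 CPM.

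In submandibular gland 3 of 6 members tested were called between the sexes, where 17.2% of 17678 genes passed, with males higher for 9.21% and females for 8.03%. Agr2 was 8.11, 2.72 and 10.3 CPM in CD1 males, 16.6, 4.34 and 36.9 in CD1 females, 12.0, 9.99 and 11.4 in C57 males and 37.9, 27.3 and 24.5 CPM in C57 females. The C57 sexes did not overlap, and CD1 female 2 lay within the range of the males. Agr2 was lower in males by 1.47 ± 0.42 on the log2 scale (edgeR, adjusted p = 0.0284). Leaving out 1 animal at a time lost the call in 7 of 12 fits (adjusted p up to 0.0673), as did limma-voom (adjusted p = 0.0644).

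Submandibular Fcgbp ran from 0.792 through a median of 1.49 to 1.92 CPM over the 6 males and from 1.42 through 3.20 to 4.32 CPM over the 6 females, and the sexes overlapped. It was lower in males by 1.13 ± 0.29 (log2, edgeR, adjusted p = 0.0164), with an adjusted p of 0.0573 with the replicate number as a block. The 3 highest females, CD1 female 1 (4.10 CPM), CD1 female 2 (3.73 CPM) and C57 female 3 (4.32 CPM), were also the 3 submandibular libraries with Fabp2 above 5 CPM (8.65, 7.69 and 9.13 CPM). Fcgbp stood at 47.4%, 48.5% and 47.3% of Fabp2 in these libraries, against 29.6% in the intestine-like library. Fabp2 was at most 0.435 CPM in the males. Of 15 tested intestinal markers, 10 were lower and 1 was higher in males. Over all 20 markers of that list, the summed level lay between 68.9 and 155 CPM in females, against 44.6 to 99.8 CPM in males. That sum is not specific to intestine, because Zg16 and Reg3b of the list reached 25545 and 3475 CPM in kept pancreas libraries. Without those 3 libraries the Fcgbp difference was -0.37 with an adjusted p of 0.449. Removing the 3 highest of 6 females lowers the difference by construction, and leaving out 1 animal at a time lost the call in 0 of 12 fits. The part of intestinal RNA in the Fcgbp difference was not tested. The Agr2 difference without them was -1.98. Those 3 libraries were the 3 lowest of 6 females in Agr2, so removing them enlarges that difference by construction.

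Submandibular Tff2 went the other way, from 2.61 through a median of 7.85 to 10.9 CPM over the males and from 1.65 through 3.21 to 4.46 CPM over the females. It was higher in males by 1.13 ± 0.35 (log2, edgeR, adjusted p = 0.0428). All 6 tested pancreas acinar markers were also higher in males, with a summed level of 762 to 2806 CPM against 466.1 to 1370 CPM in females, and the part of pancreas RNA in the Tff2 difference was not tested. Leaving out 1 animal at a time lost the Tff2 call in 10 of 12 fits (adjusted p up to 0.123). In no other tissue was a member called between the sexes, where 0.0319% (parotid), 0.0691% (sublingual), 0.0364% (pancreas) and 2.64% (liver) of genes were called.

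Of 14 tested regulators of mucous cells, 7 were lower in submandibular males, 0 were higher and 7 were not called, with a median log2 difference of -0.50 against -0.02 over all genes. The 5 granular duct markers were all higher in males (summed level 28200 to 109600 CPM, against 308 to 1897 CPM in females). Of the 4 mucous acinar markers, 1 was lower in males: Smgc, a submandibular secretory protein transcribed from the Muc19 locus, lay between 1380 and 4939 CPM in females, against 5.32 to 46.7 CPM in males (log2 difference -7.01 ± 0.58, adjusted p = 5.53e-06). Summed with Smgc, the 4 lay between 1485 and 5038 CPM in females, against 57.1 to 188 CPM in males. The log2 differences of Muc19, Nkx2-3 and B3gnt6 were -0.13 ± 0.31, -0.09 ± 0.37 and 0.18 ± 0.34, and none was called (adjusted p = 0.826, 0.906 and 0.781). What part these markers have in the Agr2 and regulator differences was not tested. Creb3l4, an endoplasmic reticulum-bound transcription factor, was lower in males by 1.72 ± 0.19 (adjusted p = 5.82e-05) and Spdef, a transcription factor of goblet cell maturation, by 1.34 ± 0.14 (adjusted p = 2.7e-05). Creb3l1 was lower by 1.25 ± 0.21 and Foxa1 by 0.74 ± 0.13. Of 24 genes of mucin O-glycosylation, 8 were higher and 5 lower in males. The sialyltransferase St3gal1 was lower by 3.82 ± 0.19, the core 2 enzyme Gcnt1 was lower by 2.91 ± 0.21, and the sialyltransferases St6galnac1 and St6galnac2 were higher by 3.73 ± 0.41 and 2.97 ± 0.15.

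Tff2 was expressed in the pancreas at 3167 ± 1048 CPM (SD, n = 11). CD1 males held 3815, 3438 and 3009 CPM, the kept CD1 females 3573 and 419 CPM, C57 males 4211, 3535 and 3692 CPM and C57 females 3911, 2394 and 2847 CPM. CD1 female 3, at 419 CPM, stood apart from the rest, and this library was also lowest in Cpa1, an acinar carboxypeptidase, and had the high lymphoid sum given above. Sublingual minus pancreas was -9.85 ± 0.39 on the log2 scale (edgeR, adjusted p = 3.75e-25).

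In the other 4 tissues Tff2 lay at 0.0349% to 0.345% of the pancreas mean (median 0.126%, n = 48), and Cpa1 at 0.0236% to 0.324% (median 0.128%). Tff2 was 2.45% to 5.6% of Cpa1 in every kept library, and 4.41% in the intestine-like library, which held 1.48 CPM of Tff2. The genes most like Tff2 were the pancreas genes Reg1, Prss3b and Cela1 (r = 0.999 each). The strain difference of Tff2 in pancreas was -0.39 ± 0.42 (edgeR, adjusted p = 0.606). It was 0.02 without CD1 female 3 (adjusted p = 0.964) and -1.46 without CD1 female 1 (adjusted p = 1.06e-05), where CD1 female 3 is the only CD1 female left.

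Muc5b was close to the detection floor. The 59 libraries held 90 counts of it in all, at most 9 per library, and 30 libraries held 0. Sublingual libraries held 0 to 5 counts each (20 in all), submandibular 0 to 9 (35 in all) and parotid 0 to 6 (27 in all). In 48 libraries the count was 3 or fewer. A library with 0 counts allows up to 3 if counts are independent, and more if reads of a pair were counted separately. No fold change is therefore given, and the gene did not pass the filter on low counts in any comparison. At this depth no difference in Muc5b was detectable.

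Of 15 tested regulators of mucous cells, 8 were higher in sublingual than in parotid gland, 3 were lower and 4 were not called (median log2 difference 1.23 against -0.07 over all genes). Of 22790 genes, 26.6% were called, 10.2% higher in sublingual and 16.4% higher in parotid gland. Against submandibular gland, 7 regulators were higher, 2 lower and 6 not called (median 0.88 against -0.00 over all genes), where 14.9% of genes were called, 7.73% higher in sublingual and 7.13% higher in submandibular gland. All 7 lymphoid markers and all 6 fat-cell markers were lower in sublingual than in parotid gland. Nkx2-3 exceeded parotid by 6.78 ± 0.23, Creb3l4 by 5.34 ± 0.22, Spdef by 3.62 ± 0.22 and Foxa2, a forkhead factor, by 3.81 ± 0.24. The 3 lower regulators are named because they are few, with their values seen: Sox10 was lower by 1.83 ± 0.23, Gfi1 by 2.75 ± 0.40 and Bhlha15, a factor of serous acinar cells, by 1.17 ± 0.24. Between the strains, 1 of 15 was higher and 2 were lower in CD1 sublingual gland, near the 14.8% of all genes called there. Foxa2 was higher by 0.83 ± 0.20, and Creb3l1 and Elf3 were lower by 0.56 ± 0.12 and 0.45 ± 0.13.

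**Figure D5:**
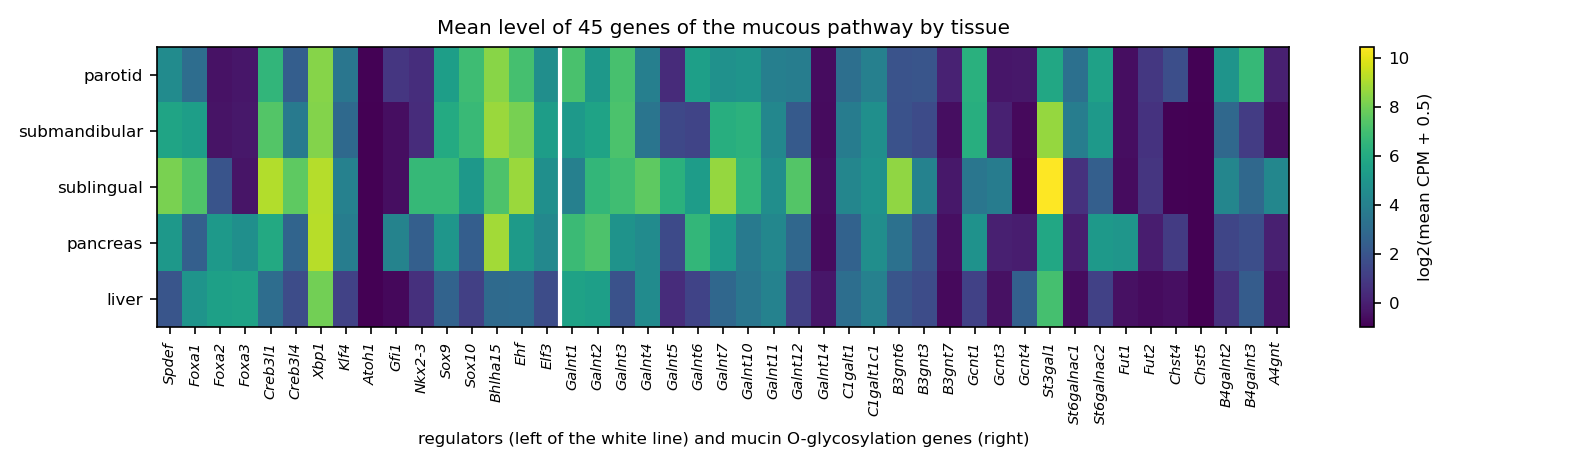
Mean level per tissue of 16 regulators (left of the white line) and 29 mucin O-glycosylation genes (right), as log2(mean CPM + 0.5). Each column compares tissues for a gene and is not scaled for length between columns. Nkx2-3 (103 CPM), B3gnt6 (379 CPM), Galnt5 (79.6 CPM) and A4gnt (19.3 CPM) are brightest in the sublingual row.

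Enzymes of mucin O-glycosylation divided in the same comparison. Of 28 tested, 12 were higher and 7 lower in sublingual than in parotid gland (median 0.33 against -0.07), and 12 were higher and 3 lower than in submandibular gland (median 0.75 against -0.00). Galnt4, which adds the first sugar, exceeded parotid by 3.64 ± 0.11, the sialyltransferase St3gal1 by 4.57 ± 0.14, Galnt5 by 6.58 ± 0.26 and B3gnt6 by 6.92 ± 0.29. Among the 7 lower, Galnt1 fell by 3.25 ± 0.15 and Gcnt1 by 3.85 ± 0.21 relative to parotid, both named after their values were seen. Between the strains, 5 of 26 were higher and 4 lower in CD1 sublingual gland, where 7.49% of all genes were higher in CD1 and 7.36% higher in C57. Gcnt1 was higher in CD1 by 3.80 ± 0.26 (19.9 ± 3.70 against 1.40 ± 0.612 CPM, SD, n = 6), Galnt11 was higher (33.1 ± 1.61 against 16.4 ± 1.13 CPM), B4galnt2, which makes a blood group-type sugar, was lower by 2.37 ± 0.28, and Galnt10 was lower by 1.15 ± 0.08.

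Other mucins and mucus proteins gave fewer calls. Of 25 tested, 3 were higher in sublingual than in parotid gland and 6 were lower (median -0.62 against -0.07). Muc19 exceeded parotid by 6.72 ± 0.32, and Bpifb1, Sytl2 and Bpifb2 were lower by 6.13 ± 0.62, 2.78 ± 0.38 and 3.61 ± 0.53. Against submandibular gland 3 were higher and 3 lower. Between the strains, 3 of 19 were higher in CD1 sublingual gland and 0 lower, a share near the 14.8% of all genes called. The 3 were Bcas1, higher by 2.02 ± 0.21, Ern2, an endoplasmic reticulum stress sensor of mucous cells, by 2.39 ± 0.43, and Bpifb2 by 2.28 ± 0.67. Ern2 and Bpifb2 were barely detected, with means of 0.614 and 0.552 CPM in CD1 and 0.113 and 0.0803 CPM in C57 sublingual gland. Among 16 tested relatives of the members, 3 were higher and 4 lower than in parotid. They include Vwf, the von Willebrand factor, which exceeded parotid by 3.70 ± 0.16.

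The intestine-like library gives the levels that intestinal RNA brings. Itln1 was at 675 CPM, Fcgbp at 783 CPM and Agr2 at 95.1 CPM, with Muc2 at 292 CPM and Fabp2 at 2645 CPM. Itln1, Fcgbp and Agr2 were above every kept pancreas library. A2ml1 (199 CPM) and Tff2 (1.48 CPM) were below every kept pancreas library, Nxpe4 (0.544 CPM) lay among them, and Muc5b had 0 counts. This is 1 library with no replicate.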

How the data were processed

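Poly(A) RNA libraries of 5 tissues from 12 mice were read from 1 table of 41079 genes by 60 libraries. The authors deposited raw counts per gene, and per the submitters' processing notes Trim Galore, HISAT2 and featureCounts were used with mouse genome GRCm39 (mm39). Versions and the strand setting are not given in the sources used here. Groups follow the tissue, strain and sex in the labels, and the same animal gave all 5 tissues, so tissues of an animal are paired. Per-animal deviations of sublingual and submandibular gland correlated at 0.0702 to 0.41 (11 of 12 animals over 0.1), and of sublingual gland and parotid at -0.157 to 0.251. With the animal as a block, no call of a member between tissues changed.

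Here edgeR 4.0.16 (R 4.3.3; TMM scaling, default filter on low counts, quasi-likelihood test, Benjamini-Hochberg over all genes) was fitted per tissue for strain and sex, over all tissues for tissue pairs, and over the 3 glands for the strain difference by gland. Calls need an adjusted p under 0.05, and between tissues also a 2-fold difference. DESeq2 1.42.0, limma 3.58.1 (voom), RLE scaling, no filter, blocks and left-out animals were alternatives. The scripts were tested on simulated data. The members and gene lists were chosen with earlier results of these data known. Named genes are all 7 members, the 3 genes most like each member that reached 10 CPM in a group, and list genes with the smallest adjusted p, which were picked from the tests they describe. The fat-cell and mammary lists and the fits without 3 parotid or 3 submandibular libraries were added after seeing the data. Promoter sequences are from RefSeq on GRCm38.p6, a different build from the counts. Intervals and floors cover counting error only, treat counts as independent, and are too narrow if both reads of a pair were counted.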

Additional observations from a re-analysis of the deposited data

Results flagged for a closer look

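Each member but Muc5b was tested in each group of 5 or 6 libraries (tissue and strain) for a library far from the others. Of these 60 tests, 11 were marked. The nominal rate of 1 in 20 is for independent, normally distributed values. It does not apply to these tests, which share libraries and used CPM without a log scale. In parotid, Agr2 was 193.161 CPM in C57 male 2, against 0.481 to 52.7 CPM in the other 5 C57 libraries. Fcgbp was 24.9186 CPM in parotid CD1 female 1, against 1.45 to 2.42 CPM, and 93.0563 CPM in parotid C57 female 2, against 1.28 to 35.3 CPM. It was 22.5068 CPM in sublingual C57 male 2, the library with Egf, against 37.9 to 43.6 CPM, and 2.42987 CPM in liver C57 female 1, against 0.513 to 1.21 CPM.

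Itln1 stood apart in 5 libraries. It was 2.75028 CPM in parotid C57 male 2 (others 0 to 0.111), 1.6516 CPM in submandibular C57 female 3 (others 0 to 0.197), 1.7047 CPM in sublingual C57 male 1 (others 0 to 0.0633), 18.5338 CPM in pancreas CD1 female 1 (others 1.78 to 2.29) and 1.98164 CPM in liver C57 female 1 (others 0 to 0.0556). Of these, the 4 outside liver had Fabp2 at 6.36 to 30.2 CPM. Tff2 was 418.78 CPM in pancreas CD1 female 3, against 3009 to 3815 CPM in the other 4.

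The strain difference of Nxpe4 differed between the 3 salivary glands, with an adjusted p of 0.000248 in edgeR and up to 0.00243 over 18 alternatives, all of which called it. The pancreas library left out of the comparisons held 95.0579 CPM of Agr2, 783.196 CPM of Fcgbp and 675.419 CPM of Itln1, each above every other pancreas library.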

How the results depend on the processing

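Of 96 member differences tested, 28 were called, 18 of them in every alternative, and none of the 28 changed sign. Over all genes the share called ran from 0.0106% to 48.5% by comparison, so the 28 carry no weight of their own. Of the 68 not called, 18 were called in some alternative and 31 changed sign in some. Numbers of genes called over the whole table moved as follows, with the range over leaving out each animal. Strain, parotid: 380 (154 to 2132), 3212 in 1 fit to all libraries, 2240 by DESeq2, 663 with the replicate block and 44 without 3 parotid libraries. Strain, submandibular: 840 (501 to 1355), 1490 by DESeq2, 462 with the replicate block and 436 without 3 submandibular libraries. Strain, sublingual: 2791 (1851 to 2713) and 1050 in 1 fit. Strain, pancreas: 1124 (356 to 6358), 3322 in 1 fit, 2388 by DESeq2, 2938 with no filter, 116 with the replicate block and 609 with all 12 libraries. Strain, liver: 2350 (1615 to 2912). Sex, parotid: 6 (6 to 7) and 39 by DESeq2. Sex, submandibular: 3048 (2208 to 3169) and 1867 without 3 submandibular libraries. Sex, sublingual: 13 (7 to 12), 45 by DESeq2, 20 with no filter and 7 with the replicate block. Sex, pancreas: 6 (5 to 5522), 163 by DESeq2, 1191 with no filter and 13 without CD1 female 3. Sex, liver: 441 (292 to 588), 995 by DESeq2 and 687 with no filter. Strain by sex, sublingual: 2 (0 to 4), 20 by DESeq2, 19 with no filter, 0 by limma-voom and 1 with the replicate block. Strain by gland: 201 (46 to 1017), 898 by DESeq2, 314 with no filter, 91 with the animal as replicate block, 107 by limma-voom and 88 without 3 parotid libraries. The cause of these shifts was not tested. The 5 tissue pairs stayed within 1.5 times. DESeq2's size factors put the median of all genes at -0.175 between sublingual and parotid, against -0.07. Animals with the same number and sex in the 2 strains had deviations correlated at -0.31 to 0.462. In parotid they correlated at 0.0798 to 0.462, with 5 of 6 pairs over 0.1, and the block changed no member's strain call there. In no tissue did all pairs exceed 0.1, so the numbers are not taken to pair animals, and the replicate block is a check only. Low counts limit Muc5b and Itln1 in C57.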
